A study of Mus musculus with 6 samples.

Results

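The NMDA receptor subunit genes are the 7 genes Grin1, Grin2a, Grin2b, Grin2c, Grin2d, Grin3a and Grin3b. They were taken by gene symbol from a table of 24972 genes measured by RNA sequencing of mouse cortex at postnatal day 7 (P7), and all 7 were in the table and passed the filter on low values. The study asked how the loss of Zmiz1, a transcriptional coregulator linked to neurodevelopmental disorders, affects gene expression in the developing cortex, and sequenced 3 wildtype and 3 Zmiz1-KO libraries. Both groups carry the floxed Zmiz1 gene (Zmiz1f/f). The Zmiz1-KO group carries in addition Emx1Cre, a Cre recombinase under the control of Emx1, which is active in the progenitors of cortical excitatory neurons and glia. Interneurons, microglia and vessel cells of the cortex arise elsewhere and keep the gene, and the dissected tissue holds all of these cells. The sex, litter and number of animals behind each library are not stated in the sources used here, so p values measure the spread between libraries, which may be technical in part.

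NMDA receptors are glutamate-gated channels that pass calcium and are needed for the strengthening, weakening and refinement of cortical synapses. Each channel is a tetramer that contains the obligatory subunit GluN1, encoded by Grin1, together with GluN2 subunits, encoded by Grin2a to Grin2d, or GluN3 subunits, encoded by Grin3a and Grin3b. GluN1 and GluN3 bind glycine or D-serine, and GluN2 binds glutamate and sets the kinetics of the channel. In the young cortex GluN2B is the main GluN2 subunit, and GluN2A rises in the weeks after birth, so the ratio of Grin2b to Grin2a is commonly read as a mark of synaptic maturation.

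The 4 GluN2 subunits end in a short tail that binds the PDZ domains of postsynaptic scaffold proteins. The last 30 coding bases of their genes, including the stop codon, are shown because they set Grin2a and Grin2b apart from Grin2c and Grin2d. The bases are from GENCODE transcripts on GRCm38 (mm10), each within a single exon and on the minus strand, and capitals mark the 15 positions that are the same in all 4 genes.
Grin2a (chr16:9577827-9577856): aaaaTgcCtAGtaTtGAaTCtGAtGTcTaA
Grin2b (chr6:135732098-135732127): aaacTttCtAGtaTtGAgTCtGAtGTcTgA
Grin2c (chr11:115249571-115249600): cggaTctCcAGccTgGAaTCaGAaGTgTgA
Grin2d (chr7:45832780-45832809): cactTctCcAGccTgGAgTCcGAgGTaTgA
The tails of Grin2a and Grin2b were identical at 25 of the 30 bases and those of Grin2c and Grin2d at 23, against 16 to 19 for the pairs across.

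How far reads can be told apart between such related genes bears on every ratio of their values. The longest run of bases that the coding sequences of Grin2a and Grin2b had in common was 24 bases, across an exon junction in both genes, and is shown because it is far shorter than the stretches of 75 bases used to look for shared sequence.
Grin2a and Grin2b: agtgacaagaagttccagagacct
No stretch of 75 bases in the transcripts of a member occurred in another member. Stretches shared with genes outside the family made up 11.1% of those of Grin2a, all with the processed pseudogene Gm7328. They made up 5.67% of those of Grin1, with the antisense gene Grin1os, 6.46% of those of Grin2d, with the antisense gene Gm45441, and 19.0% of those of Grin3b, with Tmem259 on the opposite strand. The library kit does not mark strand, so reads from these overlaps cannot be assigned with certainty. Values of Grin1os were 868 to 993 normalized counts and those of Tmem259 were 3618 to 3969 over the 6 libraries.

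The values are normalized counts, made by the authors with DESeq2, and sum to between 32661979 and 33239707 per library, which is not the sequencing depth. A single read is worth about 1.83 to 2.11 normalized counts in low genes, which puts the counted reads at an estimated 15495006 to 17858811 per library. Zmiz1, which checks the labels, reached 8119, 7929 and 7461 normalized counts in the 3 wildtype libraries, against 9944, 9779 and 9660.2 in those labelled Zmiz1-KO. The gene under deletion thus had higher values under the knockout label (log2 fold change 0.32, limma adjusted p = 0.00125). A value per gene cannot show the floxed part, so that group is named by its label throughout. Emx1, whose control elements drive the Cre, was lower there, with means of 763 ± 67.6 and 529 ± 55.1 normalized counts (SD, n = 3 per group, limma adjusted p = 0.0150), and was singled out after its values were seen. One library of each group had high Xist, wildtype replicate 3 and labelled Zmiz1-KO replicate 2. The Y-linked gene Ddx3y was at 0 and 1.89 normalized counts in these libraries, and from 1250 to 1483 in the others. As a check of the tissue, Slc17a7, the vesicular glutamate transporter of cortical excitatory neurons, had means of 19640.0 and 19623 normalized counts in the 2 groups, while of the 4 cerebellar genes listed Gabra6 and Pcp2 stayed at or under 2.14, Cbln3 ran from 36.2 to 69.7 and Zic2 from 517 to 688. The labels also speak of progenitor cells. The summed values of the 7 progenitor markers ran from 5740 to 6159 in wildtype and from 6018 to 6607 in the other group, with means from 101 for Eomes to 1541 for Nes in wildtype and from 91.3 to 1610.4 for the same 2 genes in the other group. These genes too were picked with their values known.

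Per length of its merged exons, Grin1 had the highest level of the family and Grin3b the lowest. Grin1 was at 1268 normalized counts per kb of exon over the 6 libraries, a level above 92.0% of the 15589 tested genes with a known length. Grin2b followed with 835, Grin3a with 479, Grin2d with 305, Grin2a with 99.6, Grin2c with 50.2 and Grin3b with 5.15 per kb. For each pair of neighbours in this order the 6 values of one gene lay above the 6 values of the next, with Grin2d 3.06 times and Grin2a 1.98 times the next gene. The order of the upper genes depends on the length that is used, since the annotated transcripts of Grin2b reach 24.1 kb, most of it untranslated. Per kb of the longest coding transcript the level of Grin2b was 0.300 of that of Grin1, and per kb of coding sequence it was 1.09, so Grin2b then stood first. From Grin3a downward the order was the same with all 3 lengths.

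**Figure D1:**
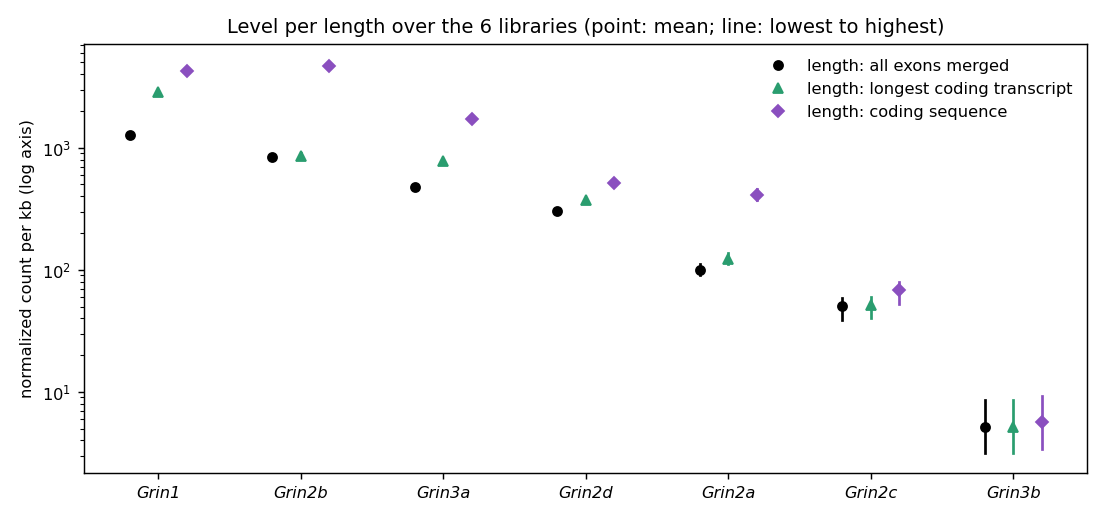
Normalized count per kb of each subunit gene, on a log axis, for 3 definitions of gene length; points are means over the 6 libraries and lines run from the lowest to the highest library. Grin3a, Grin2d, Grin2a, Grin2c and Grin3b keep their order with each length, while Grin1 and Grin2b change places when the length is that of the coding sequence.

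None of the 7 subunit genes passed an adjusted p of 0.05 in the comparison of the libraries labelled Zmiz1-KO with wildtype (limma, 0 of 7). Over all 15800 genes tested, 65 or 0.411% passed, 0.165% higher and 0.247% lower under that label, and 12 to 151 genes passed with 1 library left out. At an unadjusted p under 0.05, 1 member was counted, Grin2a, against 11.0% of all tested genes, and limma-voom also called 0 members. Log2 fold changes were above 0 for 4 members and below 0 for 3, with a median of 0.01, while 50.1% of all tested genes were below 0 and their median was -0.00018. Wildtype and labelled libraries stood wholly apart in 1 member, again Grin2a, and in 16.3% of all tested genes, with 8.16% lower under the knockout label as Grin2a was. The smallest p that an exact permutation test can reach with 3 libraries per group is 0.1. The summed values of the 7 members, of which Grin2b and Grin1 make up the most, ran from 43333 to 43972 normalized counts in wildtype and from 42004 to 42866 under the knockout label, and did not overlap. Grin2b, whose own groups overlapped, weighs most in this sum, and Grin1 had a higher mean under the knockout label. The sum thus does not show a fall of the whole family. In dissected tissue, fewer cells of a type and less RNA per cell cannot be told apart.

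**Figure D2:**
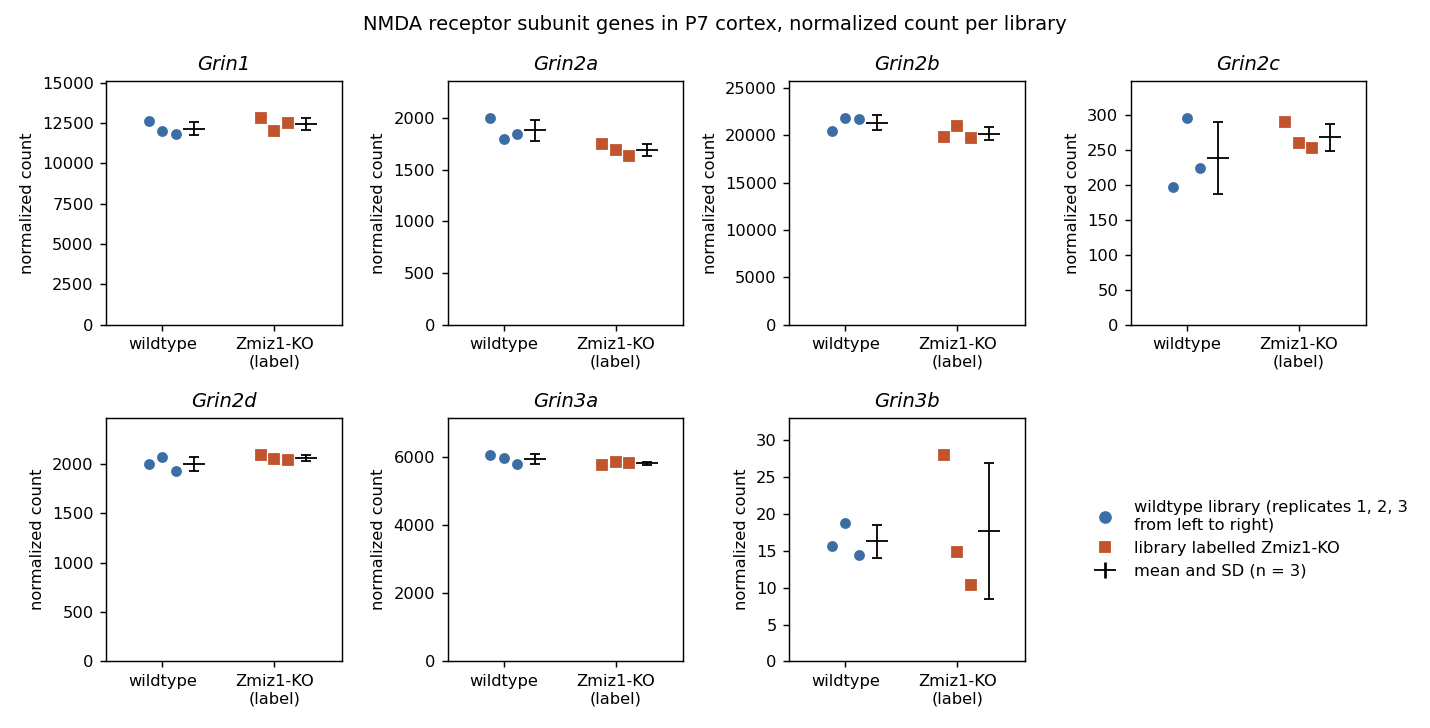
Normalized counts (vertical axes from 0) of the 7 subunit genes in each wildtype library (circles) and each library labelled Zmiz1-KO (squares), with replicates 1 to 3 from left to right and the mean and SD of 3 libraries beside them. Only in Grin2a do the 3 squares, 1634 to 1752, all lie below the 3 circles, 1803 to 1999.6.

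Grin1, on chromosome 2 of GRCm38 from 25291181 to 25319187 (minus strand), encodes the subunit without which no NMDA receptor reaches the membrane. It had 12639, 12020.1 and 11811 normalized counts in the 3 wildtype libraries, against 12797, 12019 and 12494 in those labelled Zmiz1-KO. The highest and the lowest library came from different groups, and the groups overlapped widely. The group means were 12157 ± 431 and 12437 ± 392 (SD, n = 3 each). The log2 fold change was 0.03 (standard error, SE, 0.039; 95% interval -0.05 to 0.12, limma adjusted p = 0.827). In folds, this interval ran from 0.966 to 1.08.

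Grin2b, the GluN2 subunit that prevails before and just after birth, lies on chromosome 6 from 135713233 to 136173511 (minus strand). Its values were 20414, 21796 and 21738 normalized counts in the wildtype libraries, against 19789, 20969 and 19743 in those labelled Zmiz1-KO. Wildtype replicate 1 lay below replicate 2 labelled Zmiz1-KO, so the groups overlapped, although the other 2 wildtype libraries were the highest of all. Its group means were 21316 ± 782 and 20167 ± 695 (SD, n = 3 each). The log2 fold change of -0.08 (SE 0.038, 95% interval -0.16 to 0.0014) had a limma adjusted p of 0.468. An estimated 9768 to 11466 reads per library stand behind these values, so counting error is small beside the spread between libraries.

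Grin2a encodes GluN2A, which joins synaptic receptors as the cortex matures and speeds their closing. The gene lies on chromosome 16 from 9567898 to 9995560 (minus strand). Its values were 1999.6, 1803 and 1847 normalized counts in the 3 wildtype libraries, against 1752, 1688 and 1634 in those labelled Zmiz1-KO. All 3 wildtype libraries lay above the other group, with a gap from 1752 to 1803 between the nearest libraries. Means were 1883 ± 103 (SD, n = 3) and 1691 ± 59.1 (SD, n = 3), a log2 fold change of -0.15 (SE 0.055, 95% interval -0.27 to -0.04). This had a limma p of 0.0120 before and 0.293 after adjustment over all tested genes, and an exact permutation p of 0.1, the smallest possible. Grin2a thus did not pass the threshold, and over the 16 alternative fits its log2 fold change ran from -0.18 to -0.11 with a limma adjusted p from 0.162 to 0.692. Gm7328, with which Grin2a shares stretches, is not among the 24972 genes, so its part in the values of Grin2a could not be tested.

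Grin2d, which in the cortex is best known from interneurons, lies on chromosome 7 from 45831883 to 45878378 (minus strand). It had 1999.7, 2076 and 1927 normalized counts in the wildtype libraries, against 2092, 2050.0 and 2041 in those labelled Zmiz1-KO. One wildtype library, replicate 2, lay among the values of the other group, and the rest lay below them. The group means were 2001 ± 74.2 and 2061 ± 27.4 (SD, n = 3 each), a log2 fold change of 0.04 (SE 0.049, 95% interval -0.06 to 0.15, limma adjusted p = 0.816). The summed interneuron markers ran from 19065 to 23553 in wildtype and from 24666 to 26626 in the other group. None of the 11 passed the threshold, and 5 of them were without overlap, against 16.3% of all tested genes. The list was chosen with earlier results of these data known, so its rate cannot be set against that of all genes. The part of these markers in the values of Grin2d was not tested.

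Grin2c, best known from the cerebellum and from astrocytes, lies on chromosome 11 from 115249169 to 115267243 (minus strand). It had 196, 295 and 224 normalized counts in the wildtype libraries, against 290.2, 259.8 and 253 in those labelled Zmiz1-KO. The wildtype libraries spanned the whole range of the other group. Its group means were 238 ± 50.9 and 268 ± 19.9 (SD, n = 3 each), and the log2 fold change of 0.18 (SE 0.14, 95% interval -0.11 to 0.48) had a limma adjusted p of 0.681. The change of Grin2c was 0.06 without wildtype replicate 1 and 0.35 without wildtype replicate 2. An estimated 97.8 to 146 reads per library stand behind Grin2c.

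The GluN3 subunits lower the calcium flux of the channels that contain them, and GluN3A is known to be high in the early postnatal brain. Grin3a, on chromosome 4 from 49661611 to 49845744 (minus strand), had 6068, 5964 and 5792 normalized counts in the wildtype libraries, against 5770.4, 5864 and 5829 in those labelled Zmiz1-KO. The lowest wildtype library lay among the other group. Means were 5941 ± 139.6 (SD, n = 3) and 5821 ± 47.5 (SD, n = 3), a log2 fold change of -0.03 (SE 0.039, 95% interval -0.11 to 0.05, limma adjusted p = 0.851). Grin3b, which is best known from motor neurons, lies on chromosome 10 from 79970715 to 79977190 (plus strand). Its values of 15.6, 18.8 and 14.4 normalized counts in the wildtype libraries, against 28, 14.8 and 10.3 in those labelled Zmiz1-KO, stand for an estimated 5.1 to 14.1 reads each. With so few reads, and with the stretches shared with Tmem259, a change in Grin3b was not detectable at this depth unless large. Its log2 fold change was 0.01 with a 95% interval of -0.90 to 0.93 (limma adjusted p = 0.997), and its sign turned when wildtype replicate 1, wildtype replicate 3 or replicate 1 labelled Zmiz1-KO was left out (-0.01, -0.07 and -0.36).

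**Figure D3:**
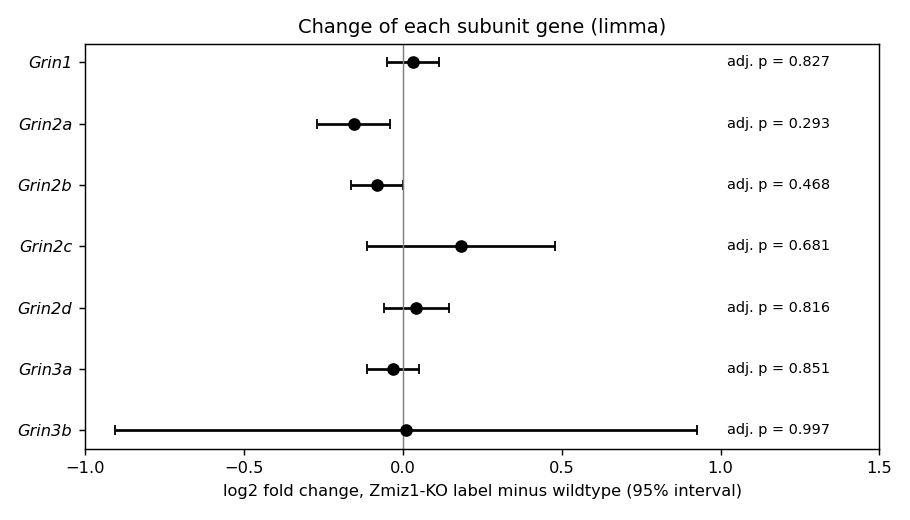
Log2 fold change of each subunit gene in the libraries labelled Zmiz1-KO against wildtype (points) with its 95% interval from limma (bars) and the adjusted p over all 15800 tested genes. The intervals of Grin1, Grin2b, Grin2d and Grin3a are narrow, that of Grin3b spans -0.90 to 0.93, and only that of Grin2a, -0.27 to -0.04, leaves out 0 before adjustment.

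The ratio of Grin2b to Grin2a was between 10.2 and 12.4 in all 6 libraries. It was 10.2, 12.1 and 11.8 in the 3 wildtype libraries, against 11.3, 12.4 and 12.1 in those labelled Zmiz1-KO, and the groups overlapped. The mean ratios were 11.4 ± 1.01 and 11.9 ± 0.577 (SD, n = 3 each), a log2 difference of 0.07 (SE 0.086). No difference was detected (exact two-sided permutation p = 0.6, adjusted 0.6 by Benjamini-Hochberg for 3 ratios). The difference rested on wildtype replicate 1, the library with the lowest ratio, and was -0.00056 without it. Per kb of exon, Grin2b was 7.37 to 8.97 times Grin2a, and per kb of coding sequence 10.1 to 12.3 times. Grin2b made up 62.9 to 66.7% of the summed GluN2 level per kb of exon over the libraries, Grin2d 22.1 to 24.8%, Grin2a 7.25 to 8.76% and Grin2c 3.06 to 4.55%. These shares depend on the length used, and that of Grin2b is larger with the coding length. Per kb of coding sequence the mean levels were 4665 for Grin2b, 512 for Grin2d, 407 for Grin2a and 68.1 for Grin2c.

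The balance between the obligatory and the other subunits was compared by 2 further ratios of levels per kb of exon. The summed GluN2 level over that of Grin1 was 0.977, 1.09 and 1.08 in the wildtype libraries, against 0.960, 1.05 and 0.965 in those labelled Zmiz1-KO, with means of 1.05 ± 0.061 and 0.991 ± 0.049 (SD, n = 3 per group). The groups overlapped, and the log2 difference of -0.08 (SE 0.064) had an exact permutation p of 0.2, adjusted 0.3. A ratio near 1 does not show a matched balance, because its size depends on the length used. For Grin2b alone, the mean ratio to Grin1 was 0.660 per kb of exon. With the longest coding transcript it was 0.300, and with the coding sequence 1.09. Grin3a over Grin1 was 0.379, 0.392 and 0.388 in the wildtype libraries, against 0.356, 0.386 and 0.369 in the other group, a log2 difference of -0.06 (SE 0.036) with an exact permutation p of 0.2, adjusted 0.3. Replicate 2 labelled Zmiz1-KO lay within the wildtype range, and the other 2 lay below it.

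**Figure D4:**
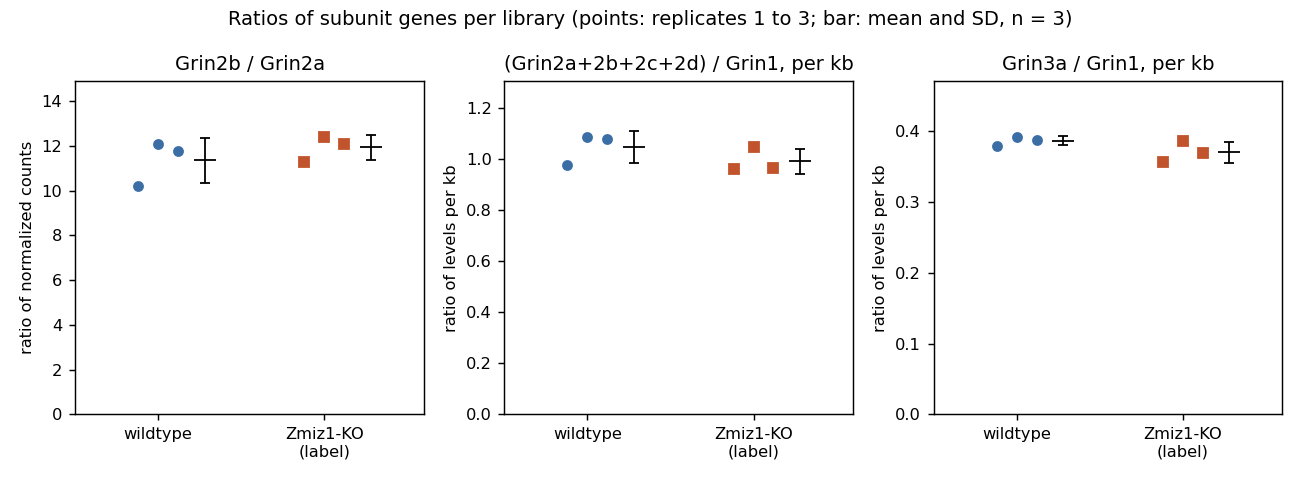
Ratio of Grin2b to Grin2a (normalized counts), of the summed Grin2a, Grin2b, Grin2c and Grin2d levels to Grin1, and of Grin3a to Grin1 (both per kb of exon), in each wildtype library (circles) and each library labelled Zmiz1-KO (squares) with the mean and SD of 3 libraries. In all 3 panels the groups overlap, and wildtype replicate 1 has the lowest ratio of Grin2b to Grin2a, 10.2.

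The genes that act with the receptor were grouped in 6 lists of 96 genes in all, of which 94 were tested. Of these, 1 passed an adjusted p of 0.05 (limma), Glul, with 0.411% of all tested genes passing. At an unadjusted p under 0.05, 13 or 13.8% did, against 11.0% of all tested genes. Groups stood apart in 17 genes, or 18.1%, against 16.3% of all tested genes. The lists' median log2 fold changes lay between -0.07 and 0.01. The summed values stood apart in 2 of the 6 lists, those of glutamate handling, with 92529 to 95867 in wildtype and 84176 to 92081 in the other group, and of regulators, with 77287 to 87422 and 74595 to 76211. Genes with high values weigh most in such sums, so the sums do not show a shift of a whole list. Mef2c, a regulator, had means of 36806 and 31217 normalized counts in wildtype and the other group, and Glul 14783 and 12393. How often sums of other genes stand apart was not tested.

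The scaffold list holds the proteins that anchor receptors in the postsynaptic density, and 0 of its 19 genes passed, with 9 log2 fold changes above 0, 10 below and a median of -0.01. Dlg4, which encodes PSD-95, had a mean of 24409 ± 970.0 normalized counts in wildtype and 25056 ± 718 in the libraries labelled Zmiz1-KO (SD, n = 3 per group; log2 fold change 0.04, limma adjusted p = 0.781). Dlg3, which encodes SAP102, the scaffold partner of GluN2B in young neurons, had 7251 ± 169 and 7480 ± 253 (limma adjusted p = 0.747). Both were picked with their values known. The largest change of the list was that of Actn2, an actinin that binds GluN1, with 840.5, 889 and 815 normalized counts in the wildtype libraries, against 981, 1019 and 988 in the other group. Its groups did not overlap, but the log2 fold change of 0.23 (SE 0.064) had a limma adjusted p of 0.168. Homer1 (-0.12) and Dlgap3 (0.09) had limma adjusted p values of 0.473 and 0.387.

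Of the 10 genes for the trafficking and surface partners of the receptor, 0 passed, 5 log2 fold changes were above 0 and 5 below, and the median was 0.00050. Neto1, an auxiliary protein of kainate and NMDA receptors, had the largest log2 fold change, 0.13 (SE 0.047, limma adjusted p = 0.316), and its groups did not overlap. Ephb2 (-0.06), a receptor kinase that gathers NMDA receptors at synapses, and Apba1 (-0.06), an adaptor of vesicles that carry them, had limma adjusted p values of 0.662 and 0.688.

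Among the 26 genes of calcium-dependent and kinase signaling, which carries the message of the channel into the cell, 0 passed, with 13 log2 fold changes above 0, 13 below and a median of 0.01. Rasgrf1, a calmodulin-bound exchange factor for Ras, had 2044, 2141 and 2089 normalized counts in the wildtype libraries, against 2494, 2650.0 and 2192 in those labelled Zmiz1-KO. The groups did not overlap, and its log2 fold change of 0.22 (SE 0.061) had a limma adjusted p of 0.168. Its relative Rasgrf2 had a log2 fold change of -0.12 (SE 0.046, limma adjusted p = 0.357), and Nos1, the neuronal nitric oxide synthase that is bound to the receptor through PSD-95, one of 0.13 (SE 0.043, limma adjusted p = 0.236). Neither of the 2 genes had overlapping groups.

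The co-agonists glycine and D-serine are made, moved and removed by the products of 13 listed genes, of which 11 were tested. Dao and Slc6a5 did not reach the filter, being listed at 0 in some libraries and near the value of 1 or 2 reads in the rest. Of the 11, 0 passed, with 8 log2 fold changes above 0, 3 below and a median of 0.01. Slc6a9, the glycine transporter GlyT1, had 1474, 1629 and 1486 normalized counts in the wildtype libraries, against 1731, 1712 and 1756 in those labelled Zmiz1-KO, and Gldc, of the glycine cleavage system, had means of 585 ± 30.4 and 661 ± 11.5 (SD, n = 3 per group). The groups of both genes were apart, with log2 fold changes of 0.18 in each and limma adjusted p values of 0.216 and 0.379. Srr, the racemase that makes D-serine, was singled out after its values were seen, with means of 4830 ± 123 and 4855 ± 219 normalized counts (limma adjusted p = 0.977), and for Shmt2 the log2 fold change was -0.14 (limma adjusted p = 0.588).

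Glutamate itself is loaded into vesicles, taken up and recycled by the products of 8 listed genes, and 1 of these passed, with a median log2 fold change of -0.07 and all 8 at or below 0 when rounded. Glul, the glutamine synthetase of astrocytes, was lower, with 14783 ± 452 normalized counts in wildtype and 12393 ± 429 under the knockout label (SD, n = 3 per group) and a log2 difference of -0.25 (SE 0.039, limma adjusted p = 0.00542). Its values were 15277, 14679 and 14392 in the wildtype libraries, against 12386, 12825 and 11967 in those labelled Zmiz1-KO, so that the groups were well apart. Without replicate 1 or replicate 3 labelled Zmiz1-KO, Glul had log2 differences of -0.25 and -0.23, with limma adjusted p values of 0.0506 and 0.0967. The astrocyte glutamate transporters Slc1a2 (-0.12) and Slc1a3 (-0.10) had limma adjusted p values of 0.750 and 0.365. Slc17a6, the vesicular glutamate transporter of thalamic neurons, stood at -0.08 on the same log2 scale, with a limma adjusted p of 0.640. Of the 7 astrocyte markers listed, 1 passed, the water channel gene Aqp4, which was lower (log2 fold change -0.29, limma adjusted p = 0.00499), and 5 of the 7 had a log2 fold change below 0. The summed astrocyte markers ran from 55026 to 59410 normalized counts in wildtype and from 50501 to 57949 in the other group, and their part in the fall of Glul was not tested.

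The list of regulators holds transcription factors and chromatin proteins known for their action on Grin genes, and 0 of its 20 genes passed, with 5 log2 fold changes above 0, 15 below and a median of -0.03. Mef2c, an activity-dependent factor, had the largest change of the list, with 41300, 32654 and 36465 normalized counts in the wildtype libraries, against 32605, 29651 and 31395 in those labelled Zmiz1-KO. The groups did not overlap, by a gap of 32605 to 32654, and the log2 fold change was -0.23 (SE 0.094, limma adjusted p = 0.466). Without wildtype replicate 1 the change of Mef2c was -0.15 (limma adjusted p = 0.422), without wildtype replicate 2 it was -0.32 (limma adjusted p = 0.0435), and in the fit with a replicate block Mef2c had a limma adjusted p of 0.00848. Rest, the repressor that takes part in the developmental decline of Grin2b, had means of 140.3 ± 6.03 and 144 ± 37.2 normalized counts (SD, n = 3 per group; limma adjusted p = 0.991) and was singled out after its values were seen. Sp4 (-0.14) and Gabpa (-0.13) had limma adjusted p values of 0.455 and 0.484.

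**Figure D5:**
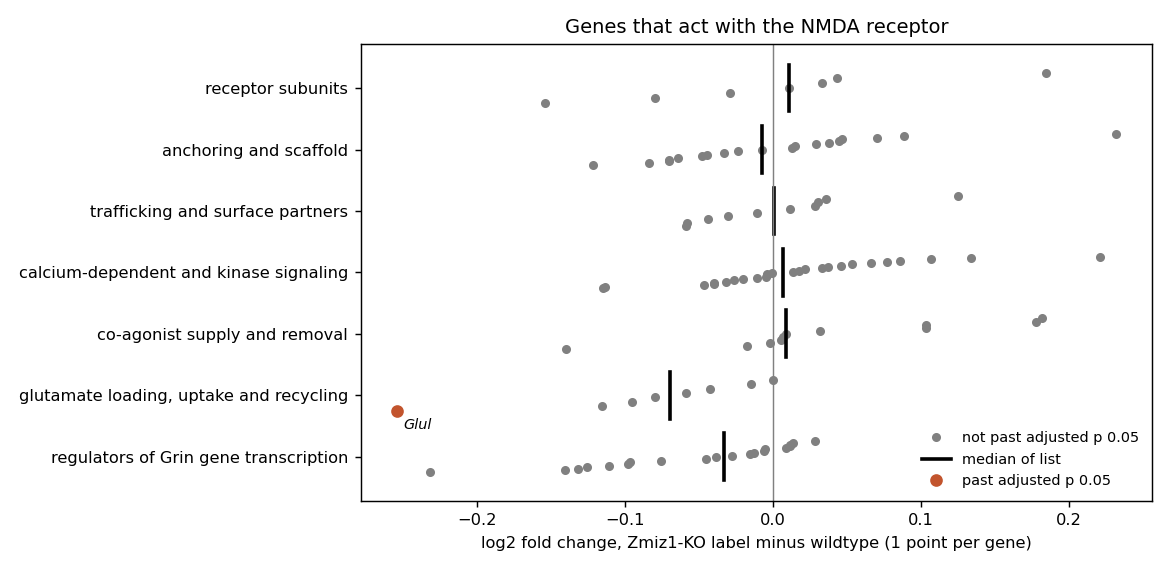
Log2 fold change in the libraries labelled Zmiz1-KO against wildtype of each tested gene (points) of the subunit list and of the 6 lists of genes that act with the receptor, with the median of each list as a bar. All lists centre near 0, from -0.07 to 0.01, and only Glul, at -0.25, passed an adjusted p of 0.05.

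Markers of cell types that the dissected tissue could hold were compared in 13 lists. Of 71 marker genes tested, 4 or 5.63% passed an adjusted p of 0.05, against 0.411% of all tested genes, and 9 of the 13 lists held none of them. The lists were chosen with earlier results of these data known, so the higher rate is not a result about cell types. The 4 were Pde10a (log2 fold change 0.37) of striatal neurons, Col1a2 (0.32) of meningeal cells, Olig1 (-0.32) of oligodendrocyte precursors and Aqp4. The list medians ran from -0.53 in the choroid plexus, where no gene passed, to 0.37 in the striatal list. All 11 interneuron markers had log2 fold changes above 0, with a median of 0.27 and the sums given beside Grin2d, and none of them passed. The sum of the 7 striatal markers ran from 13936 to 17790 and from 18979 to 21342, and that of the 4 meningeal markers from 7376 to 8541 and from 9618 to 10144. Excitatory markers summed to between 31721 and 35894 and between 31592 and 33088, with 5 of 6 log2 fold changes below 0. Sums of 3 marker lists were thus wholly higher and those of 2, oligodendrocyte precursors and thalamic neurons, wholly lower in the libraries labelled Zmiz1-KO. Oligodendrocyte precursor markers summed to 12285 to 13095 in wildtype and 10915 to 11310 in the other group, and thalamic ones to 3044 to 3184 and 2832 to 2975. Single genes stood apart in 3 of 5 precursor markers and 0 of 3 thalamic ones, and 1 log2 fold change of each list was above 0. Genes with high values weigh most in such sums, so the sums alone do not show a shift of a whole list. How often sums of other genes stand apart was not tested. The choroid plexus sum ran from 241 to 8254 in wildtype and from 286 to 4763 in the other group. Shares of cells were not measured, and the part of these markers in the values of the subunit genes was not tested.

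Over the 6 libraries, the genes whose log2 values went most closely with those of Grin2a among 12781 genes with a mean of at least 100 were Mia2, Pik3r1, Pcgf3, Adcy6 and Map2k4, with Pearson correlations of 0.989 to 0.995. For Grin2b they were Mycbp2, Iws1, Slc4a4, Pag1 and Trip11, with correlations of 0.988 to 0.992. These are the highest of 12781 values over 6 libraries that share depth and labels, and are given as a description. None of the 10 genes passed an adjusted p of 0.05 in the comparison of the groups, with limma adjusted p values from 0.0976 to 0.661.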

How the data were processed

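Total RNA from dissected P7 cortices was sequenced in 3 wildtype and 3 Zmiz1-KO libraries after TruSeq RNA v2 preparation. The authors aligned reads to mm10 with STAR and used DESeq2 for normalization, both within Illumina BaseSpace. The deposited values are a normalized signal per gene and library. Versions, annotation and strand setting are not given in the sources used here. The value of 1 read differs slightly between genes, so whole reads were not recovered and no count model was applied. Reads were estimated by dividing values by the most common low value.

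The test covered the 15800 of 24972 genes that reached 10 in 3 or more libraries. Log2(value + 1) was compared with limma 3.58.1 under R 4.3.3, with trend and robust estimation and no covariate, two-sided, with Benjamini-Hochberg adjustment over all tested genes and a threshold of 0.05. Ratios were compared by exact permutation tests. Gene lengths and sequences are from GENCODE on GRCm38, and coding sequences are the longest annotated ones. The procedure was tested on simulated data. Alternatives were limma-voom, scaling by trimmed means or upper quartiles, no filter or a stricter one, a pseudocount of 0.1 or 10, non-robust estimation, a replicate block, an Xist covariate and each library left out. The coding length was added after seeing the data.

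Named genes are the members, Zmiz1, the genes of each pathway list past the threshold and its 3 largest changes, the marker genes past the threshold, and the 5 genes most like Grin2a and Grin2b; others, such as the genes that check the tissue and those of a list that were not tested, were added with their values known. The members and lists were chosen with earlier results of these data known.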

Additional observations from a re-analysis of the deposited data

How the results depend on the processing

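No subunit gene passed the threshold in any of the 16 alternative fits (0 in each), and with a library left out the count stayed 0 to 0. Of 112 alternative values of the members, 3 turned in sign, all of Grin3b, at -0.01 without wildtype replicate 1, -0.07 without wildtype replicate 3 and -0.36 without replicate 1 labelled Zmiz1-KO, and its range with a library left out was -0.36 to 0.32. The cause was not tested. Over all tested genes 65 passed, against 17 without robust estimation and 12 to 151 with a library left out, being 12 without replicate 3 and 17 without replicate 1 labelled Zmiz1-KO, 30 without wildtype replicate 1 and 151 without replicate 2 labelled Zmiz1-KO. Under a replicate block 168 genes passed, and 2 genes of the pathway lists in place of 1, Mef2c being added (limma adjusted p = 0.00848). Deviations of same-numbered libraries from their group means correlated at -0.005, -0.113 and -0.006, and those of the other pairs at -0.096 to 0.106. With 3 libraries per group these values cannot decide whether the numbers pair the libraries. The block changed no call of a subunit gene. The pathway count was 0 to 2 with a library left out, being 0 without replicate 1 or 3 labelled Zmiz1-KO and 2 without wildtype replicate 2. Aqp4 was no longer called without replicate 1 (-0.29) or replicate 3 (-0.27) labelled Zmiz1-KO, nor Col1a2 without replicate 3 (0.32). The log2 difference of the Grin2b to Grin2a ratio ran from -0.00056, without wildtype replicate 1, to 0.12 with a library left out. It was 0.07 in the libraries with low Xist and 0.07 with the replicate block (exact sign-flip p = 0.25). That p is the smallest the sign-flip test can reach with 3 libraries per group. The level of Grin2b relative to Grin1 was 0.660 per kb of merged exons, 0.300 with the longest coding transcript and 1.09 with the coding length, which was chosen after seeing the data. Scaling moved the median log2 fold change of all genes to at most 0.0059. Grin3b rests on an estimated 5.1 to 14.1 reads and Grin2c on 97.8 to 146 reads per library. No group had 4 or more libraries, so single libraries were not tested as outliers.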
